A study of Mus musculus with 6 samples.

Results

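Opposite-strand transcripts are genes that mouse nomenclature names for the gene they lie across from, by adding os to its symbol. They were examined here in liver RNA together with those partner genes. Rows of the count table were taken whose symbol ends in os with an optional digit, leaving out Fos and names ending in Rik, and which held 60 or more reads over the 6 libraries. Of 327 rows with such a name, 130 held 0 reads and 224 in all fell short of 60, so 103 of the 56674 rows of the table were chosen. Among these, 90 are named for a gene with a row of its own, and they belong to 86 partner genes. The other 13 have no partner row. Just inside the limit were Adap2os with 60 reads, Rbm3os with 67 and Zfhx2os with 70, and just outside it Plxna4os1 with 54, Nr6a1os with 50 and Sorbs2os with 48. The limit used the sum over both diets, not their difference. A row with few reads on either diet could therefore pass on the reads of the other. The part of this in the counts below was not tested.

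The libraries came from the liver of male mice of C57BL/6, an inbred strain in wide laboratory use, which were reared for 71 weeks. Control mice (3 libraries) ate normal chow, and the other mice (3 libraries) ate chow containing polypropylene black microplastic (PB-MP). The labels name no transgene or other allele. Nothing in them ties each library to its own animal. The p-values therefore measure only how far these samples spread, and that spread may be technical.

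Many mammalian genes are transcribed from both strands. An antisense transcript can start at the promoter of its partner and run away from it (divergent), start inside the partner or beyond its end and run back through it, or lie wholly in an intron. A few are known to act on the partner in cis, such as Hand2os1 (also called Upperhand) at the Hand2 locus in the heart, but most have no known function, and many long noncoding RNAs of this kind stay in the nucleus at low levels. Several partners matter in liver. Hnf4a, Prox1 and Gata6 encode transcription factors of hepatocytes or the endoderm, Igf1 encodes a growth factor that hepatocytes secrete, Egfr a growth factor receptor, and Notum a secreted enzyme that inactivates Wnt proteins.

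The libraries held 68357478 to 112566641 counted reads. A limit of 3 reads, which a count of 0 allows, stood at 0.0285 to 0.0495 CPM (reads scaled to library size, here adjusted by the trimmed mean of M-values, TMM). It covers counting error only. The groups differed in make-up as well as diet. The 3 PB-MP libraries had 24865 to 25133 rows with a read against 23095 to 23872 in control, TMM factors of 1.04 to 1.12 against 0.887 to 0.961, and 9.43% ± 0.704 of reads on mitochondrially encoded mRNAs against 14.6% ± 0.446 (SD, n = 3). None of these overlapped between groups (two-sided exact permutation, p = 0.1, which is the lowest value open to 3 against 3 libraries). Hepatocyte markers summed to 65066 to 82616 CPM in control and 69600 to 81029 in PB-MP. Of the other marker lists, at an unadjusted p below 0.05, 3 of 8 Kupffer cell genes were higher and 0 lower (sums of 98.9 to 131 CPM against 128 to 264, the highest in PB-MP replicate 3), 3 of 7 stellate cell genes, 2 of 6 lymphocyte genes and 2 of 3 tested adipocyte genes were lower and 0 higher (Lep at 0), and 0 of 7 hepatocyte, 0 of 6 endothelial and 0 of 5 cholangiocyte genes differed. Over all genes 7.35% were higher and 4.74% lower at that p. The marker counts depended on control replicate 2 and PB-MP replicate 3. Without both, 0 Kupffer cell genes were higher, 1 stellate cell gene was lower, 1 lymphocyte gene was higher and 0 lower, 2 cholangiocyte genes were higher, 2 hepatocyte genes were lower, and 2 adipocyte genes were lower. Of the 17722 genes tested both with and without these 2 libraries, 2139 were then higher and 2033 lower. The directional library kit marks strand, but the strand setting of the counting is not given in the sources used here. Without it, reads of a transcript and of a partner that shares its exons cannot be told apart.

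RefSeq promoter windows, 300 bases from 250 before to 50 after each start on assembly GRCm38.p6, were found for 58 of the 90 transcripts (72 windows) and 67 of the 86 partners (90 windows). The 5 below show the kinds of start met here, with every CG dinucleotide in capitals, the sequence running 5′ to 3′ along the transcript. Tomm6os (chr17:47687360-47687659, plus strand), Hand2os1 (chr8:57320810-57321109, minus) and Igf1os (chr10:87863344-87863643, minus) are among the transcripts with the smallest p between diets. Map2k3os (chr11:60931818-60932117, minus) and Cep83os (chr10:94688564-94688863, minus) share most of their window with that of the partner on the other strand.
Tomm6os: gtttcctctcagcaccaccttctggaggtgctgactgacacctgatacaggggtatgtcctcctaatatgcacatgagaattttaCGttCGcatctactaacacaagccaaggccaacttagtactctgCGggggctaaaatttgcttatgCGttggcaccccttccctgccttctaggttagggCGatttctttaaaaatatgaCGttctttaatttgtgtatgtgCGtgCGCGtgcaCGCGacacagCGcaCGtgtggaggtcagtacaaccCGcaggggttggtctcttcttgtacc
Hand2os1: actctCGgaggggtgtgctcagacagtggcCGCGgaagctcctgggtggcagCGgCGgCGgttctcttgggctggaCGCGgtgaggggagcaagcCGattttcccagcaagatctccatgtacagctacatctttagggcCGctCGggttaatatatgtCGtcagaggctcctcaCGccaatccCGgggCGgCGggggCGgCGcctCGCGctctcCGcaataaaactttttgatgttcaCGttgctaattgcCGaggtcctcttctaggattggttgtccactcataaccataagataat
Igf1os: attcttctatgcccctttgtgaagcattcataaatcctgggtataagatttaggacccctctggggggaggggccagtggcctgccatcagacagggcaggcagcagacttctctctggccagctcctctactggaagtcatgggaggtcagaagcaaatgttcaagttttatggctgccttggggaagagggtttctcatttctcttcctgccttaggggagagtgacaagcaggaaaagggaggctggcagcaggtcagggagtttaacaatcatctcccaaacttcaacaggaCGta
Map2k3os: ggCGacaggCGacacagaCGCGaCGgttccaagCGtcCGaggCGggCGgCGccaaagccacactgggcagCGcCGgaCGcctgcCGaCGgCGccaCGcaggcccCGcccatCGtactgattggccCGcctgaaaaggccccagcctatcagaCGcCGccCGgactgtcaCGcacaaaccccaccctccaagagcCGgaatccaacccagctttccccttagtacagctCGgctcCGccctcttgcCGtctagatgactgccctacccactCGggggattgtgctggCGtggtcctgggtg
Cep83os: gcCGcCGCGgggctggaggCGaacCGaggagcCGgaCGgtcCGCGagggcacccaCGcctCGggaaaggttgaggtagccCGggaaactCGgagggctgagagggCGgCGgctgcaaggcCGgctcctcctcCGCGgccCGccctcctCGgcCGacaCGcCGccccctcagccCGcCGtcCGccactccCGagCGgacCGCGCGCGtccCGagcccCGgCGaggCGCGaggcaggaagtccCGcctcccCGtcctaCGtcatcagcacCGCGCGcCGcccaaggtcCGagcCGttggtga

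The window of Cep83os held 46 CG dinucleotides, that of Map2k3os 30 and that of Hand2os1 23, whereas Tomm6os had 14, and Igf1os had 1. The median was 9 over the windows of the transcripts and 19 over those of the partners, beside 7 over 32851 windows of 27025 genes. Windows of 15 pairs overlapped on opposite strands, by 286 of 300 bases for Map2k3os, 284 for Wdr83os, 276 for Cep83os and 223 for Hand2os1. TATAAA, searched on both strands, was in 9.72% of transcript windows, 10% of partner windows and 13.6% of all windows. CCAAT, on both strands, was in 34.7%, 45.6% and 37.4%, among the 5 shown in those of Hand2os1 and Map2k3os. These are matches of letters, and windows of one gene can share bases.

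Most opposite-strand transcripts were scarce. Their mean level over the 6 libraries ran from 0.120 to 48.9 CPM with a median of 0.548, and 32 of 90 reached 1 CPM. The partners had a median of 8.60 CPM, and 5 of the 86 fell below the 60-read limit themselves: Chrna1 and Myadml2 with 0 reads, Tnfsf13 with 15, Rab26 with 18 and Dio3 with 24. Of the 85 pairs with a partner above the limit, 10 had more reads on the transcript than on the partner by the median ratio over the 6 libraries. In 2 of these, N4bp2os and Sox6os, the partner had more reads in all. Per kilobase of exon, which 79 of these pairs allowed, the transcript stood above its partner in 16 by that median. Over the pairs the median ratio of transcript to partner was 0.160.

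**Figure D1:**
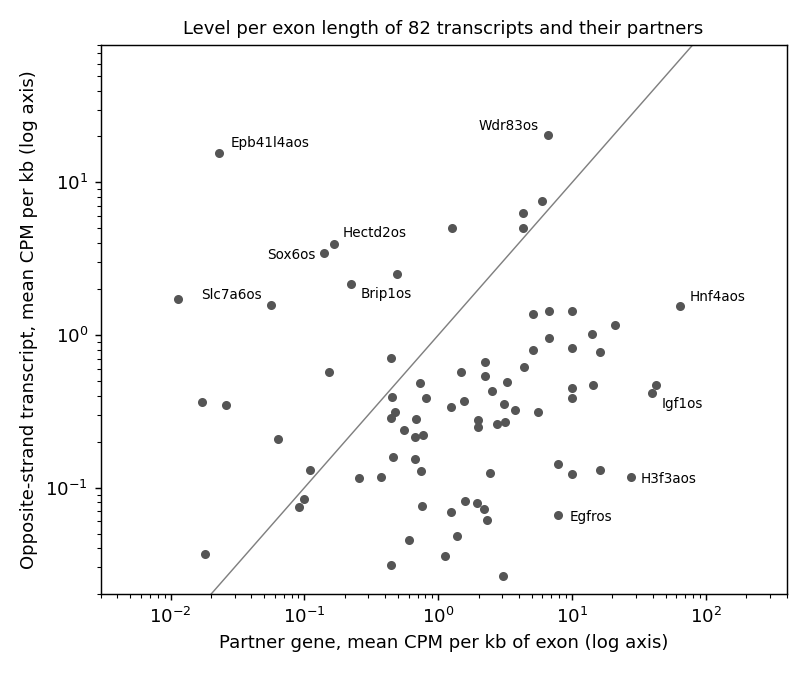
Mean level over all 6 libraries, in CPM per kilobase of exon, of 82 opposite-strand transcripts (vertical) and their partner genes (horizontal), both on log axes, 1 point per transcript. The grey line marks equal levels. Most points lie below it, while Epb41l4aos, Slc7a6os, Hectd2os and Sox6os lie far above.

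The pairs that follow had the largest and smallest ratios in reads, which is not the order per length. Per length Sox6os, at a median ratio of 48.02, stood above Slc7a6os at 33.9, and Hopxos and Mccc1os, at 0.00779 and 0.00995, stood below Igf1os at 0.0120. Epb41l4aos stood at 15.7 CPM per kilobase and its partner Epb41l4a, a cytoskeletal adaptor gene, at 0.0231. Slc7a6os, whose protein serves the nuclear import of RNA polymerase II, stood at 1.58 CPM per kilobase against 0.0562 for Slc7a6, an amino acid transporter. Their reads per 1000 partner reads ranged from 16769 to 57692 and from 8808 to 44767 over the libraries. Oip5os1, also called Cyrano, had the most reads of all the transcripts and 106722 to 578889 reads per 1000 of Oip5, a centromere gene listed at 0.106 to 0.266 CPM. At the other end, Igf1os had 1.01 to 3.76 reads per 1000 reads of Igf1, Egfros 0.897 to 6.14 per 1000 of Egfr, and H3f3aos 0.503 to 8.04 per 1000 of H3f3a, which encodes a replacement histone. Against such partners the transcript is a trace beside a highly expressed mRNA.

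No opposite-strand transcript and no partner passed the test between diets. With the quasi-likelihood test of edgeR, adjusted by Benjamini-Hochberg over 17871 genes to a threshold of 0.05, 0 of the 88 transcripts tested and 0 of the 81 partners tested differed, and over all genes the share was 0% (0 genes). The smallest adjusted p among the transcripts was 0.207. At an unadjusted p below 0.05, 27 of 88 transcripts (30.7%) were higher in PB-MP and 0 were lower, where 7.35% of all genes were higher and 4.74% were lower. Among the 4185 genes with mean levels between the quartiles of the transcripts (0.266 to 1.59 CPM), 12% were higher and 4.73% lower. Among the partners 7 of 81 (8.64%) were higher and 1 was lower. limma-voom called 0 transcripts, 0 partners and 0% of all genes. DESeq2 called 4 transcripts, N4bp2os, Hand2os1, Zfhx2os and Tomm6os, and 2 partners, Ccdc142 and Fbxl12, all higher in PB-MP, where it called 1.73% of all genes higher and 0.728% lower.

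The estimates leaned the same way. The log2 fold change of PB-MP over control was above 0 for 70 of 88 transcripts (79.5%) and for 51 of 81 partners, beside 50.6% of all genes. Its median was 0.52 over the transcripts (range -1.18 to 4.68), 0.16 over the partners, 0.01 over all genes and 0.13 over the genes of similar level. CPM did not overlap between groups for 33 transcripts that were higher in PB-MP and 1, Zeb2os, that was lower. Over all genes 19.8% did not overlap, 11.4% higher and 8.49% lower. The CPM of the 90 transcripts summed to 202 ± 20.5 on normal chow and 257 ± 11.7 on PB-MP chow (SD, n = 3, exact permutation p = 0.1), and that of the partners to 2098 ± 105 and 2176 ± 149 (exact permutation p = 0.5). Abundant rows weigh most in such sums, and mean levels of the transcripts ran up to 48.9 CPM with a median of 0.548. Scaling by library size alone moved the median of all genes to 0.23 and that of the transcripts to 0.75. Without PB-MP replicate 3 the median of the transcripts was 0.31, and that of the partners was 0.057 without control replicate 3, 0.079 without control replicate 1 and 0.27 without control replicate 2.

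**Figure D2:**
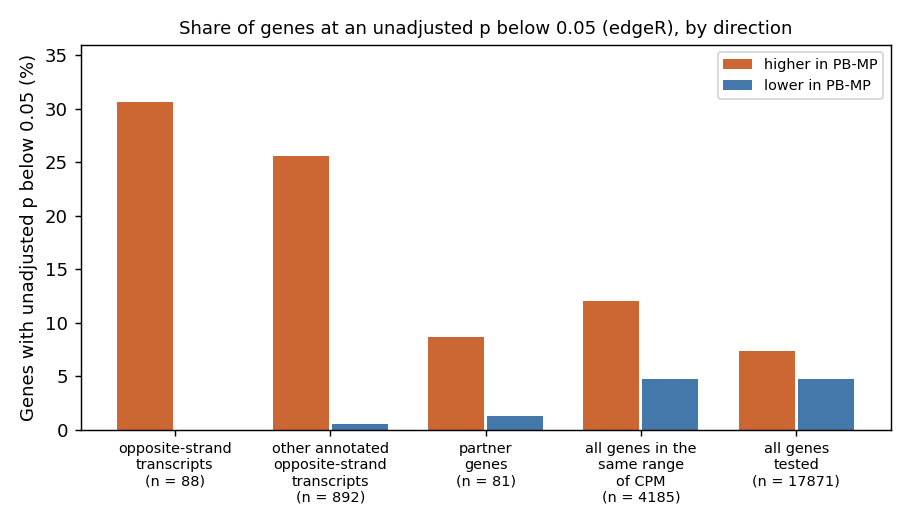
Share of genes (%) with an unadjusted edgeR p below 0.05, higher (orange) or lower (blue) in PB-MP, for 5 sets of tested genes. The opposite-strand transcripts stand at 30.7% higher and 0% lower, the other annotated opposite-strand transcripts at 25.6% and 0.561%, and all genes at 7.35% and 4.74%.

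The same lean was seen in a wider set. GENCODE M21 (GRCm38) placed 926 further noncoding genes, not named with os, across from a gene in the table. Of the 892 tested, 228 (25.6%) were higher and 5 lower at an unadjusted p below 0.05, with a median log2 fold change of 0.62. Over all genes 7.35% were higher and 4.74% lower at an unadjusted p below 0.05. Without control replicate 2 and PB-MP replicate 3, 2139 of 17722 genes were higher and 2033 lower. Other long noncoding RNAs were counted beside them, 0 of which passed at an adjusted p below 0.05 in edgeR. Of 10 tested RNAs known to stay in the nucleus, 5 were higher and 0 lower at the same p (median 0.91; 8 higher and 0 lower without control replicate 2 and PB-MP replicate 3), with Firre at 1.13, 2.33 and 1.46 CPM in control and 3.21, 4.67 and 5.35 in PB-MP, and Meg3 at 0.247, 0.891 and 0.428 against 1.70, 1.17 and 2.14. Malat1, the most abundant of them, stood at 165, 412 and 153 against 365, 333 and 366 CPM, so control replicate 2 lay above all PB-MP libraries. Of 11 tested antisense or host RNAs with other names, 5 were higher and 0 lower (median 0.57), but 3 genes stand in both lists, and of the 8 in this list alone 4 were higher (median 0.49), led by Mir22hg (26.2, 42.0 and 30.1 against 62.2, 56.6 and 61.4 CPM) and Snhg1 (6.85, 6.57 and 6.55 against 9.85, 10.3 and 11.9). Of the 18 RNAs tested in these lists together, 7 overlapped between groups. Among all genes 19.8% did not overlap. The part of nuclear RNA, of the number of rows detected and of the mitochondrial share in the results of the os transcripts was not tested.

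The 8 transcripts with the smallest p are given library by library, in CPM, for replicates 1, 2 and 3. In edgeR the adjusted p was above 0.05 for each of them. N4bp2os overlaps the start of N4bp2, a gene for a nuclease-domain protein. It stood at 0.782, 0.743 and 0.751 CPM in control and 1.97, 2.93 and 1.82 in PB-MP (a log2 difference of 1.56 ± 0.28 SE, edgeR adjusted p = 0.207, DESeq2 adjusted p = 0.00176). The control libraries lay close together and all PB-MP libraries lay above them. N4bp2 itself stood at 1.19, 1.04 and 0.304 against 0.342, 10.4 and 0.390, so that only PB-MP replicate 2 was high.

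Hand2os1 shares most of its promoter window with Hand2, a transcription factor of mesenchymal cells. It stood at 1.59, 2.43 and 1.27 CPM in control and 3.84, 4.62 and 6.33 in PB-MP (a log2 difference of 1.49 ± 0.33, edgeR adjusted p = 0.224, DESeq2 adjusted p = 0.0042), without overlap. Hand2 stood at 9.98, 6.02 and 6.02 against 3.64, 8.09 and 4.87, overlapping between groups with an estimate below 0 (-0.41 ± 0.36). Stellate cell and fibroblast markers, the class of liver cells in which Hand2 is known, summed to 293 to 300 CPM in control and 164 to 281 in PB-MP. Dcn held most of that sum, at 176, 202 and 201 against 104, 184 and 187 CPM, and its groups overlapped. The estimate was below 0 for 6 of the 7 markers and above 0 for Lrat (0.32 ± 0.39). Col1a1 stood at 5.53, 3.99 and 4.39 against 2.45, 2.71 and 1.61 CPM. Of the 7 markers 3 were lower and 0 higher at an unadjusted p below 0.05 (1 lower without control replicate 2 and PB-MP replicate 3). Over all genes 4.74% were lower at that p. In such bulk libraries fewer cells of a type and less RNA per cell cannot be told apart.

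Zfhx2os, across from the zinc finger homeobox gene Zfhx2, had 2 reads in the control libraries together and 68 in the PB-MP libraries. The ratio was 31.1 per counted read (95% exact interval 8.28 to 262, counting error only). This interval pools the reads of each diet and leaves out the variation between libraries. Zfhx2os was also chosen by its small p, and it passed the read limit mostly on its PB-MP reads. The interval is therefore no test of a difference between diets. Control replicate 2 held 0.0330 CPM, control replicates 1 and 3 held 0 reads, and the PB-MP libraries held 0.254, 0.378 and 0.164 CPM. Its level thus lay near the limit of detection in control. Zfhx2 stood at 7.64, 9.82 and 5.49 CPM against 9.01, 10.1 and 6.52.

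Tomm6os runs across Tomm6, which encodes a subunit of the mitochondrial outer membrane import channel. It stood at 0.714, 1.06 and 0.590 CPM in control and 1.75, 1.62 and 2.62 in PB-MP (a log2 difference of 1.35 ± 0.34, edgeR adjusted p = 0.242, DESeq2 adjusted p = 0.0352). Tomm6 stood at 64.3, 42.9 and 57.01 against 42.6, 24.3 and 54.9 CPM, an overlap with lower values in PB-MP (-0.43 ± 0.31). Prkag2os2 stood at 0.192, 0.165 and 0.124 CPM against 0.571, 0.780 and 0.318. Its partner Prkag2, a regulatory subunit gene of the energy sensor AMPK, stood at 9.85, 12.6 and 11.1 against 12.4, 18.2 and 12.3. A further transcript of the same partner, Prkag2os1, went the other way, from 0.398, 0.429 and 0.295 to 0.127, 0.296 and 0.103 CPM, where PB-MP replicate 2 and control replicate 3 met (edgeR adjusted p = 0.453).

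Notumos and Igf1os lie across from genes for secreted proteins. Notumos stood at 2.46, 2.52 and 3.21 CPM in control and 5.35, 4.56 and 4.88 in PB-MP (a log2 difference of 0.85 ± 0.22, edgeR adjusted p = 0.250). Notum stood at 22.7, 21.5 and 16.9 against 33.2, 28.7 and 22.4, where only PB-MP replicate 3 reached down to a control library. Igf1os overlaps Igf1 without shared exon bases, and it stood at 0.714, 0.842 and 0.390 against 1.61, 1.49 and 1.45 CPM (1.23 ± 0.34, edgeR adjusted p = 0.260). Igf1 stood at 257, 461 and 387 against 428, 419 and 406, and its groups overlapped. Gata6os stood at 1.58, 1.24 and 1.34 against 2.21, 2.67 and 2.78 CPM, with Gata6 at 7.14, 6.11 and 6.05 against 6.09, 7.04 and 5.14.

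**Figure D3:**
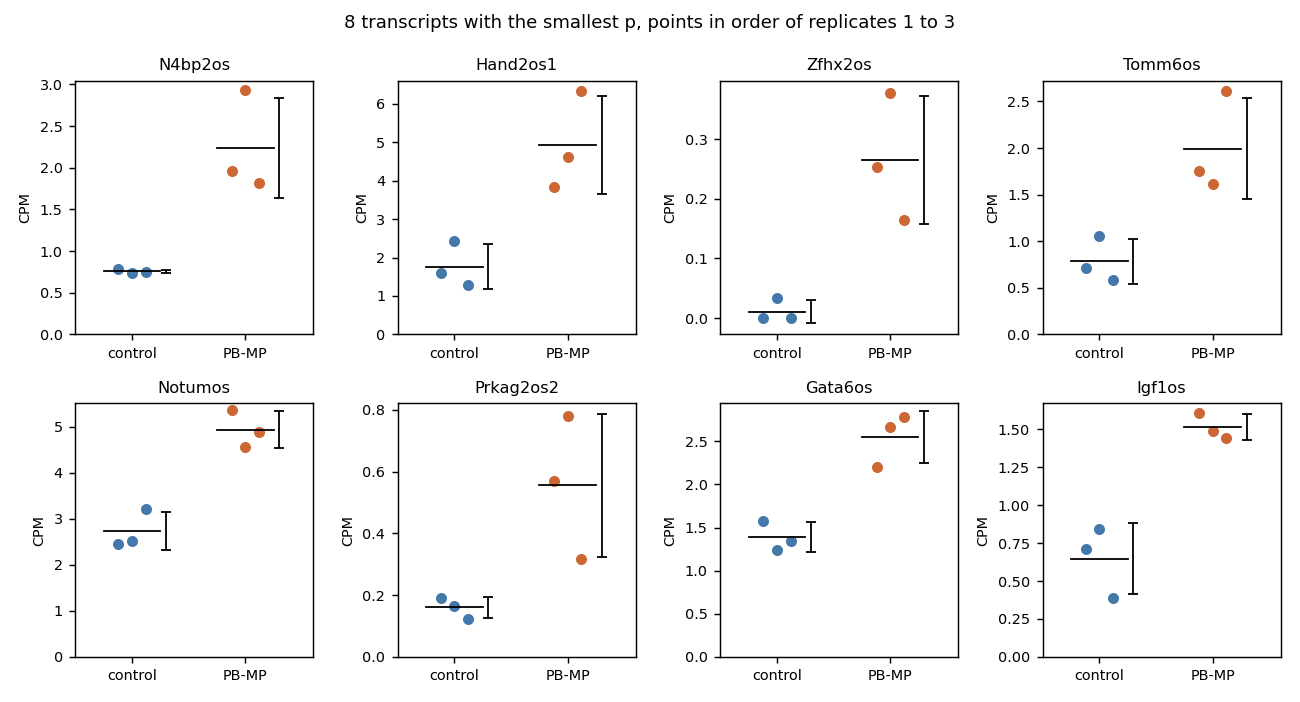
CPM of the 8 opposite-strand transcripts with the smallest p, 1 point per library (control blue, PB-MP orange), with the group mean (line) and SD (bar) on linear axes that differ between panels. In each panel all 3 PB-MP points lie above the 3 control points, and these transcripts were chosen by their p.

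The transcripts of liver regulators did not share one pattern. They are described in addition to the naming rule, chosen after their values were seen. Hnf4a, a nuclear receptor that is a central regulator of hepatocyte identity, stood at 373, 322 and 290 CPM against 334, 330 and 216. Hnf4aos stood at 1.70, 1.45 and 2.21 against 0.532, 0.756 and 2.20 CPM. PB-MP replicates 1 and 2 were low, and PB-MP replicate 3 matched the highest control (-0.62 ± 0.535). Prox1os stood at 4.68, 3.20 and 4.36 against 4.89, 5.60 and 8.60, without overlap (0.64 ± 0.29), whereas Prox1 varied from 15.3 to 69.9 CPM within the PB-MP group. Of the 19 hepatocyte transcription factors tested, 3 were higher and 2 lower at an unadjusted p below 0.05 (median log2 fold change -0.06), where 7.35% of all genes were higher and 4.74% lower. Without control replicate 2 and PB-MP replicate 3, 1 factor was higher and 2 were lower, where 2139 of 17722 genes were higher and 2033 lower. Foxa1, a pioneer factor of that list, was named after its values were seen, with 12.4 CPM in PB-MP replicate 3 and 0.264 to 1.005 in the other libraries.

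The most abundant transcripts include some that encode proteins, such as Wdr83os, Cebpzos and Slc7a6os, and of the 10 with most reads only Ctcflos had an unadjusted p below 0.05. Oip5os1 stood at 26.4, 58.4 and 35.4 CPM in control and 64.5, 61.6 and 47.5 in PB-MP (a log2 difference of 0.53 ± 0.30), and Hectd2os at 6.89, 30.3 and 6.64 against 18.03, 14.95 and 17.6 (0.21 ± 0.59). In both, control replicates 1 and 3 were the lowest libraries and control replicate 2 was high. Hectd2, an E3 ubiquitin ligase gene, was also highest in control replicate 2, at 0.768, 2.46 and 1.34 against 1.597, 1.55 and 1.31 CPM.

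Ctcflos lies across from Ctcfl, a germline relative of the insulator protein gene Ctcf, and stood at 9.04, 9.70 and 7.83 CPM against 14.5, 25.8 and 10.1 (0.92 ± 0.35, edgeR adjusted p = 0.367). Ctcfl stood at 1.96, 1.32 and 1.20 against 2.17, 1.52 and 1.27. Slc7a6os stood at 6.52, 3.78 and 4.09 against 7.01, 4.85 and 13.8, with PB-MP replicate 3 apart, and Slc7a6 at 0.178, 0.429 and 0.114 against 0.241, 0.272 and 0.308. Wdr83os, which encodes a subunit of a membrane protein chaperone of the endoplasmic reticulum, stood at 29.2, 16.9 and 24.9 against 17.7, 17.3 and 20.4, with control replicate 2 the lowest of all. Its partner Wdr83, a scaffold protein gene, stood at 20.05, 16.01 and 18.3 against 18.7, 16.1 and 21.7.

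The others overlapped widely. Brip1os stood at 14.96, 14.9 and 12.8 CPM against 14.99, 15.4 and 11.1, and Brip1, a DNA repair helicase gene, at 1.25, 2.23 and 1.65 against 1.86, 1.44 and 1.54. Cebpzos stood at 7.24, 7.67 and 8.83 against 7.73, 6.24 and 13.3, and Cebpz at 18.4, 36.5 and 27.2 against 28.5, 30.2 and 26.9. PB-MP replicate 3 was the highest library for Cebpzos. Rab10os stood at 8.44, 7.26 and 6.93 against 5.91, 8.05 and 6.61, and Rab10, a gene for a small GTPase of membrane traffic, at 66.8, 81.6 and 86.0 against 76.3, 72.0 and 55.5. Zbtb11os1 stood at 8.04, 5.31 and 6.66 against 5.84, 7.15 and 8.01, and Zbtb11, a zinc finger gene, at 6.28, 12.8 and 6.84 against 10.6, 11.2 and 8.41. The SE of the log2 fold change was 0.20 to 0.30 for these 4 transcripts, and no estimate among them was farther from 0 than 0.20.

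For the other pairs with extreme read ratios, Epb41l4aos stood at 5.87, 6.49 and 7.13 CPM against 5.53, 6.99 and 8.46, and Epb41l4a at 0.247, 0.182 and 0.124 against 0.330, 0.142 and 0.236. Egfros stood at 0.0823, 0.314 and 0.266 against 0.279, 0.473 and 0.195, and Egfr at 91.7, 115 and 80.9 against 83.03, 134 and 31.7. H3f3aos stood at 0.398, 0.248 and 0.0475 against 0.748, 0.402 and 0.297, and H3f3a at 73.5, 103 and 94.5 against 93.1, 83.1 and 137. CPM overlapped between groups for all 6 genes. Over all 90 transcripts, 9 had 0 reads in at least 1 library. Phtf1os was the one with 0 reads in a PB-MP library, in replicate 2, while it held 1.80 and 1.42 CPM in the other two.

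Among the 81 partners tested, 8 had an unadjusted p below 0.05, and 7 of these (8.64% of the 81) were higher in PB-MP. Of all genes 7.35% were higher and 4.74% lower at that p. Ccdc142 stood at 0.398, 0.429 and 0.618 CPM in control and 2.97, 1.13 and 3.098 in PB-MP (a log2 difference of 2.31 ± 0.45, edgeR adjusted p = 0.207, DESeq2 adjusted p = 0.00051). Its transcript Ccdc142os had a log2 fold change of 0.30 ± 0.50. Fbxl12, an F-box gene of a ubiquitin ligase, stood at 4.87, 3.73 and 3.21 against 8.16, 7.03 and 7.06 (0.91 ± 0.23, edgeR adjusted p = 0.241, DESeq2 adjusted p = 0.0335), and Fbxl12os was at 0.78 ± 0.52. For Frs3, a docking protein gene of growth factor receptors, and for St8sia3, a sialyltransferase gene, partner and transcript both lay without overlap above control. Frs3 was at 1.004 ± 0.32 and Frs3os at 2.67 ± 1.06, and St8sia3 at 1.20 ± 0.35 and St8sia3os at 1.66 ± 0.69. Rapgef4, which encodes a cAMP-activated exchange factor, stood at 31.5, 44.7 and 73.2 against 83.5, 84.8 and 81.7 CPM, with Rapgef4os3 at 1.6 ± 0.63 and Rapgef4os2 at 0.79 ± 0.62. Mccc1, a leucine breakdown enzyme subunit gene, was the one with lower values, at 37.98, 45.8 and 37.9 against 31.7, 28.1 and 17.5 CPM (-0.66 ± 0.24), and Mccc1os was at -0.15 ± 0.50.

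**Figure D4:**
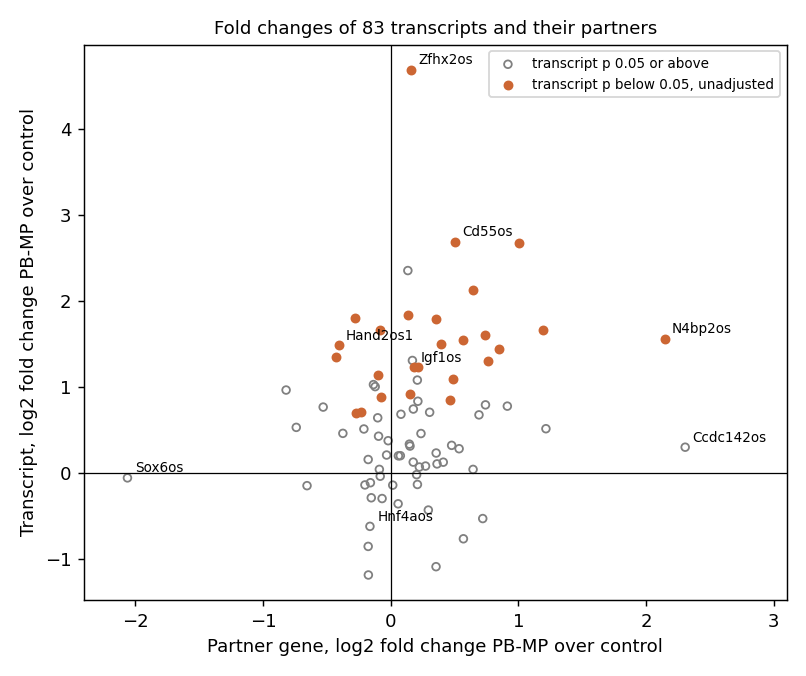
Log2 fold change of PB-MP over control of each transcript (vertical) against that of its partner (horizontal) for the 83 pairs with both tested, 1 point per pair. Filled points mark transcripts with an unadjusted p below 0.05, all of which lie above the horizontal line at 0, and both estimates were above 0 in 44 pairs.

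Both estimates were above 0 in 44 of the 83 pairs and below 0 in 10. In 21 pairs the transcript was above and the partner below 0, and in 8 the reverse. As 70 of 88 transcripts and 51 of 81 partners had estimates above 0, many pairs would have both above 0 without any link between them. A link within pairs was not tested. Of these 83 pairs some share a partner, such as Prkag2, Bcas3 and Rapgef4. A transcript and a partner with shared exon bases may also share reads.

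Each pair was next read within its own library, as the log2 ratio of transcript to partner reads with 0.5 added to each, which does not depend on the scaling. The ratio did not overlap between groups in 24 of 85 pairs. It was higher in PB-MP in 21 (24.7%) and lower in 3 (3.53%), where among the 926 other annotated pairs 27.3% were higher and 3.24% lower (30.6% in all). Each such pair has an exact permutation p of 0.1, the smallest that 3 against 3 libraries allow (two-sided), and the smallest adjusted p over the 85 pairs was 0.354. The difference in mean ratio was above 0 in 60 pairs and had a median of 0.47, beside 0.67 over the other annotated pairs, of which 721 of 926 (77.9%) lay above 0.

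The pairs with the widest separation had few control reads, such as Zfhx2os with 0, 3.36 and 0 reads per 1000 of Zfhx2 against 28.1, 37.6 and 25.2. Hand2os1 went from 160, 403 and 212 per 1000 reads of Hand2 to 1056, 572 and 1299, so that it had more reads than its partner in PB-MP replicates 1 and 3. Its annotated exons are longer, at 12840 bases against 2351. Per kilobase of exon the mean over all libraries was 0.261 CPM for Hand2os1 and 2.74 for Hand2. Gata6os had 221, 203 and 222 per 1000 against 362, 379 and 541, and Tomm6os 11.1, 24.6 and 10.3 against 41.1, 66.6 and 47.6. Igf1os had 2.78, 1.83 and 1.01 against 3.76, 3.55 and 3.57, with the PB-MP libraries close together. Dnm3os, a precursor of microRNAs within an intron of Dnm3, had 524, 333 and 74.1 against 800, 611 and 1400. The lower ratios were those of Prkag2os1 (40.4, 34.2 and 26.5 against 10.2, 16.2 and 8.34), Adap2os (8.32, 9.56 and 15.8 against 6.01, 5.38 and 2.19) and Zeb2os (70.6, 33.6 and 46.8 against 25.7, 24.6 and 31.9).

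**Figure D5:**
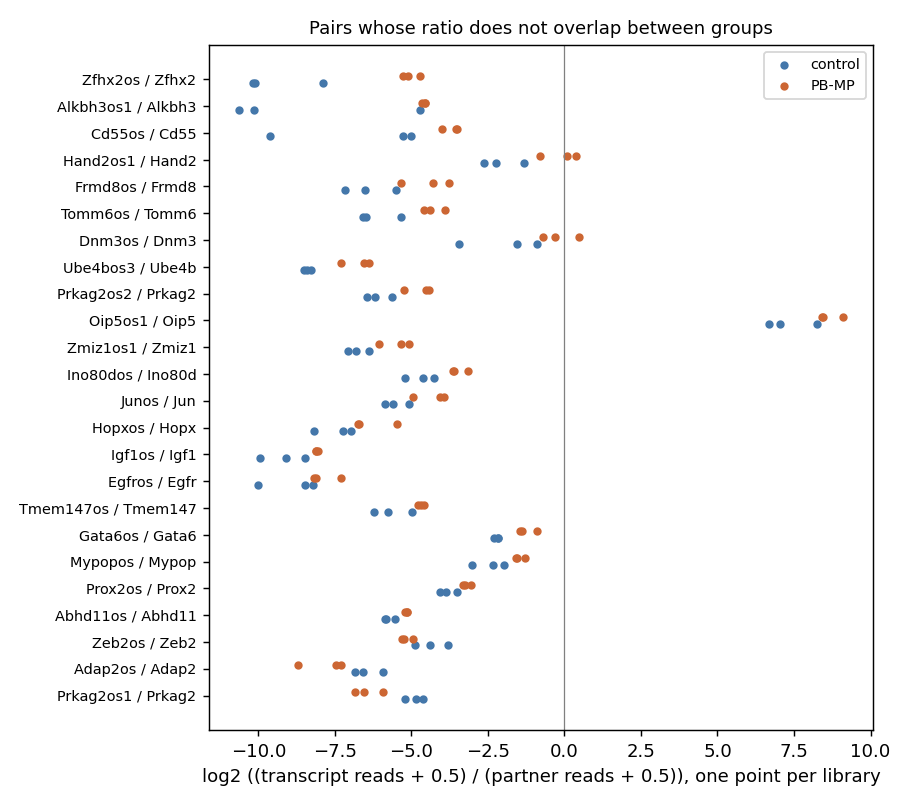
Log2 ratio of transcript to partner reads in each library (control blue, PB-MP orange) for the 24 pairs whose groups did not overlap, sorted by the difference between groups. In 21 pairs the 3 PB-MP points lie to the right, in Zeb2os, Adap2os and Prkag2os1 to the left, and only Oip5os1 lies wholly right of 0.

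By the GENCODE M21 annotation, 84 of the 90 pairs had a known position and all 84 lay on opposite strands. The transcript shared exon bases with the partner in 57 pairs, overlapped it in introns only in 11, started within 1000 bases of it and ran away in 10 (divergent), and lay farther off in 6. The divergent class holds only pairs whose annotated genes do not overlap. Some pairs with shared exon bases also start close together, with promoter windows that overlap by 284 bases for Wdr83os, 223 for Hand2os1 and 194 for Junos. At an unadjusted p below 0.05, 20 of 55 tested transcripts with shared exon bases were higher (median log2 fold change 0.68), 3 of 11 in introns only, namely Dnm3os, Igf1os and Rapgef4os3 (0.46), 1 of 10 divergent, Map2k3os (0.44), and 0 of 6 farther off (0.32). At that p 7.35% of all genes were higher and 4.74% lower, and among the genes of similar level 12% were higher and 4.73% lower. No difference between these classes was tested. The divergent Cep83os, with the densest CG window shown, stood at 3.25, 3.102 and 2.99 CPM against 3.71, 2.92 and 2.98. Map2k3os stood at 0.782, 0.809 and 0.704 against 0.938, 1.19 and 1.59, while Map2k3, a stress kinase gene, stood at 61.6, 41.7 and 72.6 against 51.3, 48.0 and 46.6.

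The 6 transcripts annotated as protein-coding (Wdr83os, Cebpzos and Slc7a6os among them) had a median log2 fold change of 0.16, with 0 at an unadjusted p below 0.05. The 77 tested noncoding ones had a median of 0.68, with 25 higher and 0 lower. The other 5 had no gene of that name in GENCODE M21, and 2 of them were higher at that p, Cd55os and Gata6os. At that p 7.35% of all genes were higher and 4.74% lower, and among the genes of similar level 12% were higher and 4.73% lower. The difference between coding and noncoding transcripts was not tested.

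The 13 chosen rows without a partner row are no uniform class. Sos1 and Sos2 (Ras exchange factors), Nos1 and Nos3 (nitric oxide synthases) and Icos (a T cell costimulator) only match the letters, as do Mios, Mocos, Nrros, Pros1, Selenos and Uros, whose names are not built on a partner symbol. Proscos and Zbtb8os are opposite-strand names whose partner symbol has no row. Uros, an enzyme gene of heme synthesis, was the one with an unadjusted p below 0.05 (3.90, 4.24 and 5.18 CPM against 7.02, 5.402 and 9.73, edgeR adjusted p = 0.362). Nos1 lay lower without overlap, at 0.261, 0.281 and 0.304 against 0.101, 0.154 and 0. Proscos had a log2 fold change of -0.43 ± 0.35 and Zbtb8os, which encodes a cofactor of transfer RNA ligation, 0.07 ± 0.18.

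Control replicate 2 and PB-MP replicate 3 differed from the rest of their groups in several of these genes, such as Malat1, Hectd2os and Hnf4aos. Without both, 19 transcripts were higher and 3 were lower (Wdr83os, Hnf4aos and Taco1os) at an unadjusted p below 0.05, where 12.5% of the 18115 genes tested in that fit were higher and 11.4% lower. Of the partners 15 were higher and 6 lower. The ratio then did not overlap in 47 of 85 pairs, with 2 libraries per group. On counts simulated for this contrast, edgeR found 0 of 65 genes set 2-fold apart and 23 of 65 set 4-fold apart (35.4%). Recovery of the opposite-strand transcripts as a set was not tested.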

How the data were processed

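Poly(A)-selected liver RNA was sequenced in 6 libraries, 3 per diet, grouped by the labels. Values are raw counts as the authors deposited them, by gene symbol (56674 rows, 939 of them under a repeated name), and the series table matched the 6 single files. Per the submitters' processing notes, bcl2fastq and GRCm39 were used, with roles not stated. Aligner, counter, annotation, multi-mapping and strand settings were not given in the sources used here. Members and gene lists were chosen with earlier results of these data known.

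The counts went through edgeR 4.0.16 (quasi-likelihood, R 4.3.3) after filterByExpr (minimum count 10, minimum total count 15) and TMM scaling, with Benjamini-Hochberg adjustment over 17871 genes and a threshold of 0.05, no fold minimum. DESeq2 1.42.0, limma-voom (limma 3.58.1), other scalings and filters, a 120-read minimum, a replicate block and leaving out libraries were alternatives. CPM are TMM-scaled. The SE is the fold change divided by the square root of F. Pair ratios were tested by exact permutation over 20 splits of 3 against 3 libraries and adjusted over 85 pairs. The test was tested on simulated counts of this comparison (17231 genes fitted), where it recovered 0 of 67 genes changed 1.5-fold and made 4 calls on unchanged genes.

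The genes given library by library are the 10 transcripts with most reads, the 8 with the smallest p (where fewer than 8 pass), the 3 pairs with the largest and the 3 with the smallest median read ratio, and their partners, with the 2 genes of smallest p named for some lists. Others were named after their values were seen. Biotypes, positions and exon lengths come from GENCODE M21 (GRCm38), not the build of the notes, so no coordinates are given beyond the RefSeq promoter windows (GRCm38.p6). No value column was left unused (0). Same-numbered libraries were not paired by the labels. Some genes that the rule would name are not reported here.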

Additional observations from a re-analysis of the deposited data

How the results depend on the processing

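The 0 transcripts and 0 partners past an adjusted p below 0.05 in edgeR became 4 transcripts and 2 partners with DESeq2, and stayed at 0 under the other settings run. The median log2 fold change of the transcripts moved from 0.52 to 0.75 with library size only, 0.34 with the stricter filter (at least 1 CPM in 3 libraries, which kept 35 transcripts) and 0.31 without PB-MP replicate 3 (0.31 to 0.62 with each library left out in turn). That of the partners moved from 0.16 to 0.38 with library size only and ran from 0.057 (without control replicate 3) through 0.079 (without control replicate 1) to 0.27 (without control replicate 2). The 27 transcripts higher at an unadjusted p became 11 of 35 with the stricter filter, which tests fewer genes. They became 23 of 72 with a minimum of 120 reads, which is also a sum over both diets. The 7 partners became 16 with library size only, 11 with limma-voom, 11 with the replicate block and 15 when PB-MP replicate 3 and control replicate 2 were both dropped, and ran from 6 to 10 with 1 library left out. The 24 pair ratios without overlap became 47 without those 2 libraries, where 2 against 2 overlap less easily, and ran from 27 to 36 with 1 library left out. Apart from the filter, the cause of these shifts was not tested.

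With the replicate number as a block, 0 transcripts and 0 partners passed, 20 transcripts were higher at an unadjusted p, and the medians were 0.63 and 0.16. The labels give no pairing by these numbers. The deviations of same-numbered libraries correlated at -0.09, 0.09 and 0.08, and those of differently numbered libraries at -0.14 to 0.08. With 3 libraries per group these values cannot show whether libraries were paired.

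Among 40 genes named by rule, the estimates that changed sign are given here, none of them past an adjusted p of 0.05. With library size only they were Brip1 at 0.15, Brip1os at 0.18, Egfr at 0.0053, Gata6 at 0.14, Hectd2 at 0.21, Rab10 at 0.022 and Rab10os at 0.073. With limma-voom they were Hectd2 at 0.14. With the replicate block they were Hectd2 at 0.11. With libraries left out (each in turn, or 1 of each diet as above) the estimates ran for Brip1 from -0.27 to 0.17, Brip1os from -0.12 to 0.12, Cebpz from -0.16 to 0.35, Cebpzos from -0.22 to 0.41, Ctcfl from -0.094 to 0.38, Egfr from -0.74 to 0.32, Epb41l4aos from -0.069 to 0.25, Gata6 from -0.20 to 0.028, H3f3a from -0.038 to 0.35, Hectd2 from -0.35 to 0.56. They ran likewise for Hectd2os from -0.13 to 1.29, Igf1 from -0.027 to 0.38, N4bp2 from -1.20 to 2.86, Slc7a6 from -0.14 to 0.89, Wdr83 from -0.15 to 0.16, Zbtb11os1 from -0.19 to 0.22 and Zfhx2 from -0.038 to 0.53. Without PB-MP replicate 2, N4bp2 was at -1.20. The cause of these changes was not tested. Depth limits the transcripts near 0 reads, such as Zfhx2os.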
